A study of Mus musculus with 16 samples.

Results

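The genes described here encode the extracellular side of WNT signalling: 39 mouse genes, chosen by name, of the 21853 protein-coding genes that were measured. They comprise 19 WNT ligands (Wnt1 to Wnt16), 10 Frizzled receptors (Fzd1 to Fzd10) and 10 secreted antagonists (Sfrp1, Sfrp2, Sfrp4, Sfrp5, Frzb, Dkk1 to Dkk4 and Wif1). Each gene was looked up in lists of ChIP-seq peaks for 3 histone marks, H3K4me3, H3K27me3 and H2AK119ub1, and a gene was called marked when a peak overlapped its promoter, the 1 kb on either side of any of its protein-coding start sites. All 39 were found in the annotation.

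The cells were hematopoietic stem cells (HSCs) sorted from pooled bone marrow of female C57BL/6 mice, either 10 weeks old (young) or 20 months old (aged). Sorted cells lacked the IL-7 receptor (IL-7 on the labels), lineage antigens, CD34, CD48 and Flt3 and carried Sca-1, c-kit and CD150. The labels give 16 libraries, with 2 for each of the 3 marks and for the input at each age. The deposited files hold 1 pooled peak list for each mark and age, 6 in all, so no spread between replicates could be computed, no comparison between the ages was tested, and every difference below is a description of these lists.

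The lists differed in length. H3K27me3 had 63142 peaks in young and 20419 in aged HSCs, H2AK119ub1 2593 and 17768, and H3K4me3 11371 and 6723. The number of peaks in a list thus moved with age in the same direction as most counts of marked genes below, and its part in them was not tested, so the promoter counts are also given with both lists of a mark held to the same number of peaks. The covered lengths, the spans of neighbouring genes, the counts within 5 kb and the positions around start sites are given for the full lists only. A gene missing from a list may carry the mark below the level at which peaks were called. Library depth was not given in the sources used here. From the fold enrichment and p-value of each H3K4me3 peak a whole number of reads at the summit was recovered, with a median of 20 in young and 19 in aged HSCs, and no such number could be had for the other marks.

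WNT ligands are secreted, lipid-modified proteins that bind Frizzled receptors together with Lrp coreceptors and stabilise β-catenin, or act through other routes. Secreted frizzled-related proteins (Sfrp genes and Frzb) and Wif1 bind the ligands themselves, whereas Dickkopf proteins (Dkk genes) act mainly at the Lrp coreceptors. In bone marrow the pathway is known for roles in HSC self-renewal, with ligands supplied largely by niche cells. H3K27me3 is laid down by Polycomb repressive complex 2 and H2AK119ub1 by Polycomb repressive complex 1, and both are typical of silent developmental genes. H3K4me3 lies at the start sites of active genes and, together with H3K27me3, at promoters termed bivalent.

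The promoter sequences of 6 genes are shown because they stand for the different states found below. They are RefSeq windows of 300 bases on GRCm38.p6, running from 250 bases before to 50 bases after the RefSeq start. That start can differ from the annotated start site used for the promoter calls and distances, as at Fzd10, Fzd9, Fzd4 and Dkk1. The Fzd10 window lies wholly downstream of the annotated start site. A window was matched for 27 of the 39 genes. The others are Wnt5a, Wnt7b, Wnt8a, Wnt10a, Fzd2, Fzd3, Fzd6, Fzd8, Sfrp1, Sfrp4, Dkk3 and Dkk4. Wnt1 (chr15:98789607-98789906, plus strand), Wnt16 (chr6:22287977-22288276, plus strand) and Dkk1 (chr19:30549447-30549746, minus strand) carried H3K27me3 across the whole window in young HSCs. Fzd4 (chr7:89404116-89404415, plus strand) had only H3K4me3 at its promoter, Fzd10 (chr5:128600856-128601155, plus strand) was the Frizzled gene with the longest H3K27me3, and Fzd9 (chr5:135250998-135251297, minus strand) had no peak of any list at its promoter. Each sequence reads 5′ to 3′ along the gene's strand, with CpG dinucleotides in capitals.
Wnt1: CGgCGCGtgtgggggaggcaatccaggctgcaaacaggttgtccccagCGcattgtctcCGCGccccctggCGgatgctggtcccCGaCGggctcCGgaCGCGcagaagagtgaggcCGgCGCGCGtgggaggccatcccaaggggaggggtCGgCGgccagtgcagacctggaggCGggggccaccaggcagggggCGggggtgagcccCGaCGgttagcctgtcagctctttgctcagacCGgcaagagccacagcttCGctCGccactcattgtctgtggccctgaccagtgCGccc
Wnt16: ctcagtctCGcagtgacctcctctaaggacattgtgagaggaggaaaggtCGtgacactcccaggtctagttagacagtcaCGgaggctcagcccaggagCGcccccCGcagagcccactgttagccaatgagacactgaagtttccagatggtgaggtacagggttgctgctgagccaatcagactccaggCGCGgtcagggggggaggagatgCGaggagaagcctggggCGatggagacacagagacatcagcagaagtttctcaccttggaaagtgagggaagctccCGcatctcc
Dkk1: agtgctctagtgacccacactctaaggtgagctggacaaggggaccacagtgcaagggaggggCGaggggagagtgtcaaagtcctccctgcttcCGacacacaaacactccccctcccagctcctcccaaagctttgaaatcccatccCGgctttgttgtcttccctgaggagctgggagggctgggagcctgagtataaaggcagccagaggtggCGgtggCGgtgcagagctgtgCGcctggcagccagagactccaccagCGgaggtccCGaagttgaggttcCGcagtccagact
Fzd4: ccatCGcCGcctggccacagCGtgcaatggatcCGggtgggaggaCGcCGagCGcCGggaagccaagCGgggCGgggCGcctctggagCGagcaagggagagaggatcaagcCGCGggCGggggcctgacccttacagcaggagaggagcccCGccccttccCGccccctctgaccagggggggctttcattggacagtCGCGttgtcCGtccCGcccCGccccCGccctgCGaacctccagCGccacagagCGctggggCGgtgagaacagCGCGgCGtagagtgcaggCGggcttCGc
Fzd10: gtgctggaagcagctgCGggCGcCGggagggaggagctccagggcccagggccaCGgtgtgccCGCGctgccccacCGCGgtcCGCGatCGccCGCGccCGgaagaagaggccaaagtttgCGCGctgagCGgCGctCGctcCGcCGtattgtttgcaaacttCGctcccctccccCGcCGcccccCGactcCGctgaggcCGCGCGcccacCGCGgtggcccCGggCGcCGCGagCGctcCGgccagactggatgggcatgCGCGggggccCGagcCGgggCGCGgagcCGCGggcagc
Fzd9: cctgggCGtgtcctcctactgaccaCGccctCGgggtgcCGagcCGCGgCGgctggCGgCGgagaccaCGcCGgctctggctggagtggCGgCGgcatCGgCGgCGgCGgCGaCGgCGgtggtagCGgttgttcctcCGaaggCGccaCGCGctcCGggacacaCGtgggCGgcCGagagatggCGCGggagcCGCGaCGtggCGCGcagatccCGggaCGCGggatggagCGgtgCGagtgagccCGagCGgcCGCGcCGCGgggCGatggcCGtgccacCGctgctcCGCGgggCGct

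The capitals show how unlike these promoters were. The windows of Fzd9, Fzd10, Fzd4 and Wnt1 held 53, 45, 32 and 26 CpG, and those of Wnt16 and Dkk1 held 10 and 9. The median was 25.5 CpG over the 30 windows of the matched genes and 7 over all 32851 RefSeq windows. H3K27me3 covered all 300 bases of the Wnt1, Wnt16 and Dkk1 windows in young HSCs, and 0, 118 and 270 bases in aged HSCs. In aged HSCs H2AK119ub1 covered all 300 bases of the Wnt1 window, whereas in young HSCs it covered 169 bases of the Wnt16 window. The Fzd4 window had 133 bases of H3K4me3 in young HSCs. It had none in aged HSCs, and the H3K4me3 peak that remained lay further upstream. None of the 6 lists had a peak within the Fzd10 or Fzd9 window.

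The ligands as a class carried H3K27me3, and the receptors mostly did not. In young HSCs the mark was at the promoter of 30 of the 39 genes, against 16.5% of all protein-coding genes: 19 of 19 ligands, 3 of 10 receptors and 8 of 10 antagonists. In aged HSCs it was at 18 of 39, against 8.58% of all genes: 13 ligands, 1 receptor and 4 antagonists. Of the 30 genes marked in young HSCs, 18 were thus marked in aged HSCs too, beside 49.5% of all genes marked in young HSCs. Every one of the 18 marked in aged HSCs had been marked in young HSCs, a share near that of all genes (95.0%). No gene of the 39 had H3K27me3 in aged HSCs only, a state seen in 0.426% of all genes.

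**Figure D1:**
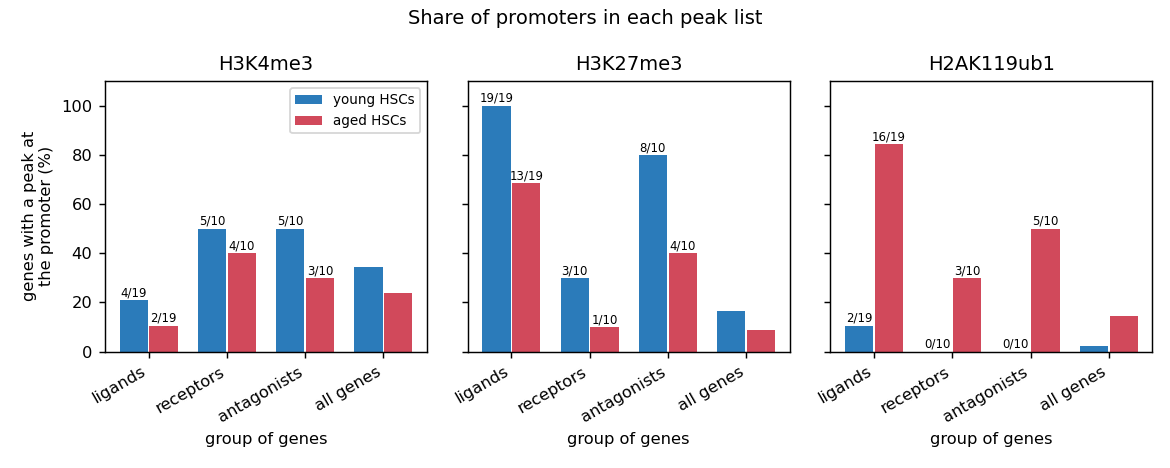
Share of promoters (y axis, %) with a peak of H3K4me3, H3K27me3 or H2AK119ub1 (panels) in young (blue) and aged (red) HSCs, for WNT ligands, Frizzled receptors, secreted antagonists and all protein-coding genes; numbers over the bars are genes marked of genes in the group. H3K27me3 was at 19 of 19 ligands in young and 13 of 19 in aged HSCs, and H2AK119ub1 at 2 and 16 of 19; each bar is 1 pooled list without replicates.

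H2AK119ub1 showed the opposite order of the ages. It was at the promoters of 2 of the 39 genes in young HSCs (2.10% of all genes), Wnt10a and Wnt16, both of which were marked in aged HSCs as well (79.3% of all genes marked in young HSCs). In aged HSCs it was at 24 of 39 genes (14.6% of all genes): 16 ligands, 3 receptors and 5 antagonists. The mark was thus listed in aged HSCs only at 22 of the 39, beside 13.0% of all genes. With the aged list held to the 2593 widest peaks, the count in aged HSCs was 7 (3.67% of all genes), and those listed in aged HSCs only were 6 (599 of all 21853 genes): Wnt1, Wnt3, Wnt9a, Wnt11, Frzb and Dkk1.

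H3K4me3 was present at about the share seen across the genome. It marked 14 of the 39 genes in young HSCs (34.3% of all genes), namely 4 ligands, 5 receptors and 5 antagonists, and 9 in aged HSCs (23.7%), namely 2 ligands, 4 receptors and 3 antagonists. Of the 14, 7 were marked in aged HSCs too, where 52.1% of all marked genes were. Fzd1 and Fzd7 had H3K4me3 in aged HSCs only, a state of 5.81% of all genes. Only Fzd9 and Dkk4 had no peak of any list at the promoter, whereas 44.2% of all genes had none.

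**Figure D2:**
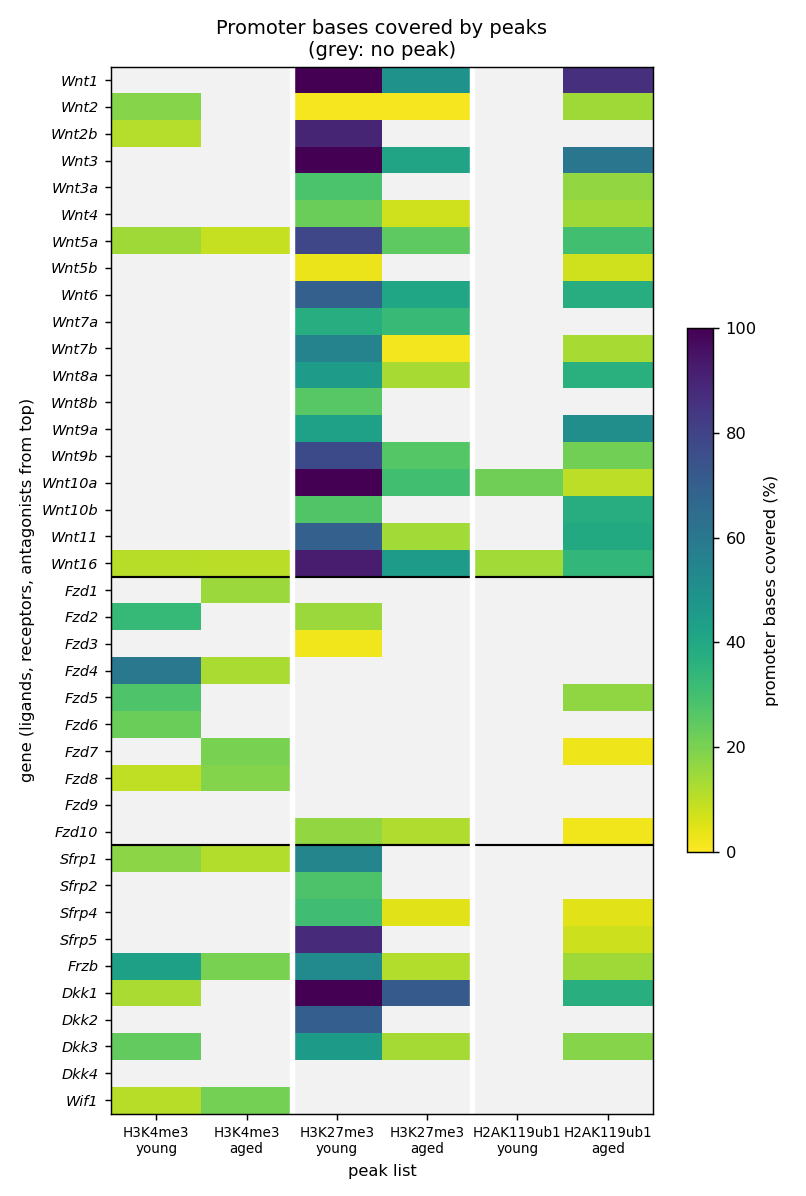
Percentage of promoter bases covered by peaks (colour scale, 0 to 100%) for each of the 39 genes (rows: ligands, receptors, antagonists, separated by lines) in each of the 6 pooled lists (columns); grey means no peak. The H3K27me3 columns are filled for all 19 ligands in young HSCs and the H2AK119ub1 column mostly in aged HSCs.

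Among the ligands, Wnt10a, Wnt3, Wnt3a and Wnt5a had the longest H3K27me3 in the gene and the 5 kb on either side in young HSCs. These lengths depend on gene length, so they are compared here between the ages and not between genes. Wnt10a had 18287 bp in 9 peaks in young HSCs and 5480 bp in 8 peaks in aged HSCs. Wnt3 had 15783 bp in 13 peaks and 5450 bp in 12 peaks. Wnt3a, a canonical ligand that stabilises β-catenin, had 14807 bp in 23 peaks and 2868 bp in 6 peaks, and its only promoter peak was listed in young HSCs alone. Wnt5a, the best known ligand of the β-catenin-independent routes, had 13827 bp in 9 peaks and 2531 bp in 5 peaks. In these 4 genes the peaks of aged HSCs were shorter as well as fewer, the widest H3K27me3 peak being 7656 and 2378 bp for Wnt10a, 5370 and 875 bp for Wnt3, 2285 and 870 bp for Wnt3a and 8851 and 602 bp for Wnt5a.

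The widest region at any of the 39 genes was the one at Wnt5a. In young HSCs it spanned chr14:28506761-28515611, through introns, coding exons and a UTR, and it covered the second annotated start site of the gene at position 28511405. In aged HSCs the part of it nearest that start site was held by a pair of peaks of 526 and 569 bp. At Wnt3 the young region, chr11:103771205-103776574, covered the start site from both sides, and in aged HSCs peaks of 243 and 730 bp lay on either side of that start site without covering it. The H3K27me3 region of Wnt1 in young HSCs, chr15:98787789-98790994, covered the whole 2001 bp promoter, of which 972 bp were covered in aged HSCs.

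Over the 19 ligands the median length of H3K27me3 in the gene and its flanks was 7065 bp in young and 1832 bp in aged HSCs, beside a median of 0 over all genes at both ages. The 6 ligands with promoter H3K27me3 in young HSCs only were Wnt2b, Wnt3a, Wnt5b, Wnt8b, Wnt9a and Wnt10b. Wnt5b, Wnt9a and Wnt10b had the mark nowhere in the gene or its flanks in aged HSCs, after 1155, 1518 and 1228 bp in young HSCs. Wnt8b had 11050 bp in young and 5420 bp in aged HSCs, the latter all away from the promoter. Their promoter length under the mark in young HSCs ranged from 172 bp at Wnt5b to 1797 bp at Wnt2b. At the low end of those marked at both ages, Wnt2, a ligand known from lung development, was called on an overlap of 29 bp with a peak that lay mostly outside the promoter, and this call does not hold when an overlap of 100 bp is asked.

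**Figure D3:**
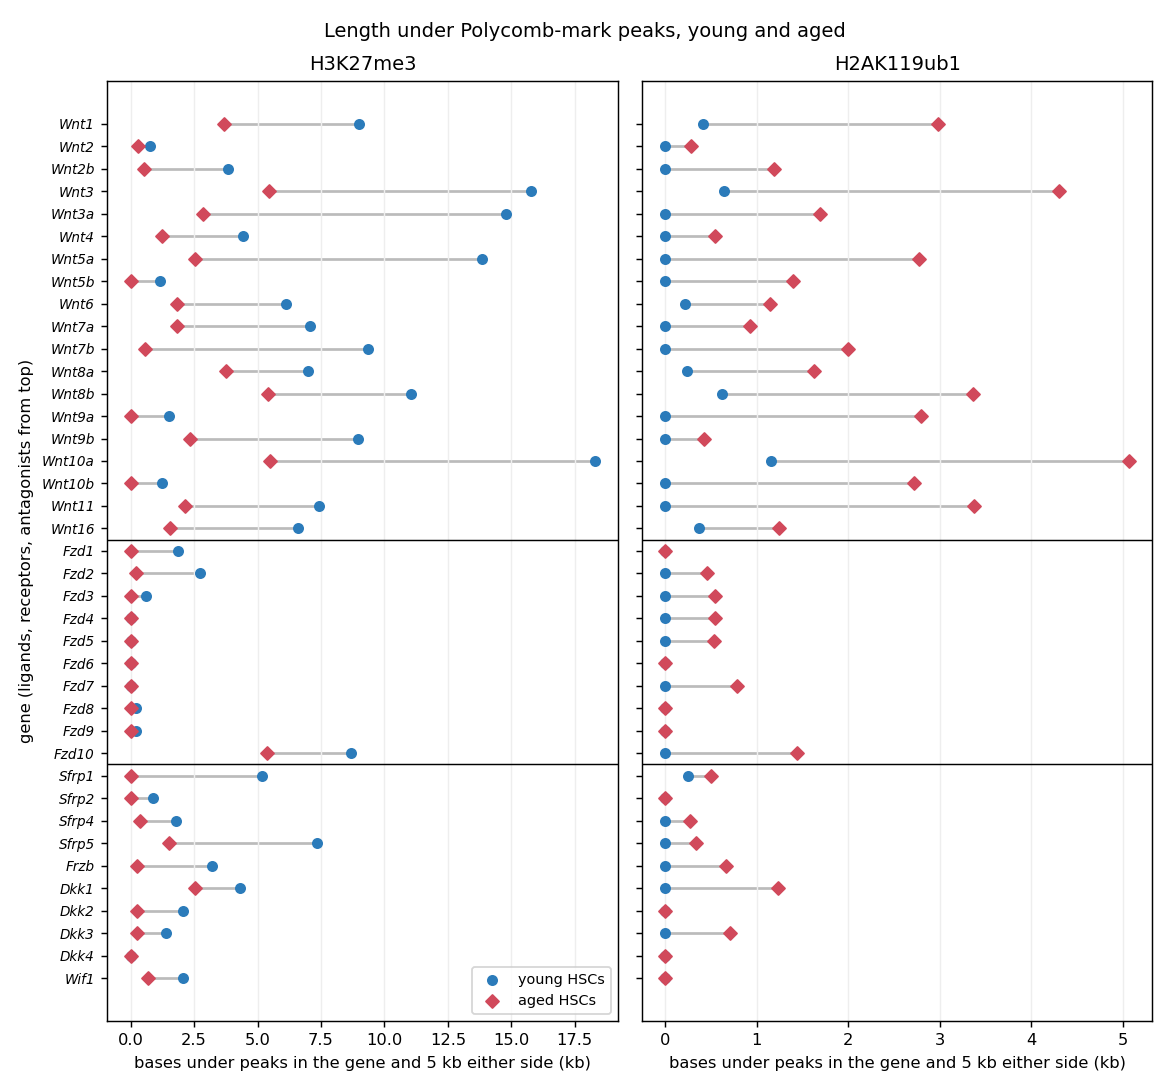
Length under H3K27me3 peaks (left) and H2AK119ub1 peaks (right) in each gene and the 5 kb on either side (x axes, kb; the axes differ in scale), for young HSCs (blue circles) and aged HSCs (red diamonds), 1 pooled list each. H3K27me3 was shorter in aged HSCs at Wnt10a (18287 and 5480 bp), whereas H2AK119ub1 was longer there (1157 and 5069 bp).

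The Frizzled receptors had less H3K27me3 than the ligands, but not less than all genes. In young HSCs 6 of 10 had it in the gene or within 5 kb, beside 27.8% of all genes. In aged HSCs 2 of 10 had it, beside 16.5%. Fzd10 stood apart with 8665 bp in 6 peaks in young HSCs and 5390 bp in 8 peaks in aged HSCs, and it was the only receptor with promoter H3K27me3 at both ages. Its peaks flanked the start site. In young HSCs they lay at chr5:128599042-128599955 upstream and chr5:128601635-128603445 in the coding exon and UTR, on either side of the CpG-dense window printed above. Fzd2 had 2726 bp in young and 216 bp in aged HSCs, and Fzd1 had 1876 and 0 bp, none of it at the promoter. At Fzd3, with 596 and 0 bp, the promoter call rests on 40 bp. Fzd4, Fzd5, Fzd6 and Fzd7 had no H3K27me3 in the gene or flanks at either age, and Fzd8 and Fzd9 had 200 and 207 bp in young HSCs and none in aged HSCs.

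Among the receptors H3K4me3 was at Fzd4 and Fzd8 at both ages, at Fzd2, Fzd5 and Fzd6 in young HSCs and at Fzd1 and Fzd7 in aged HSCs. Fzd4, the receptor of Norrin as well as of WNT ligands, had 3 promoter peaks in young HSCs of 772, 375 and 222 bp, with 22, 22 and 19 reads at the summit. In aged HSCs it had 1 promoter peak of 257 bp with 18 reads, inside the young peak at chr7:89403477-89404248. At Fzd8 the promoter peaks of the ages did not overlap, one of 430 bp centred 1027 bp upstream of the start site in young HSCs and one of 372 bp centred 310 bp upstream in aged HSCs, with 19 and 16 reads. The 2 receptors with H3K4me3 in aged HSCs only rested on single peaks, of 303 bp with 15 reads at Fzd1 and of 449 bp with 26 reads at Fzd7. The Fzd7 peak had the most summit reads of any H3K4me3 peak at the 39 genes in aged HSCs.

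The H2AK119ub1 calls among receptors in aged HSCs were Fzd5, Fzd7 and Fzd10. Fzd5 and Fzd7 had no H3K27me3 at either age, which set them apart from the other 22 genes with H2AK119ub1 in aged HSCs, all of which had promoter H3K27me3 in young HSCs. The promoter overlap was 330 bp at Fzd5, 53 bp at Fzd7 and 41 bp at Fzd10, so the last 2 do not hold at an overlap of 100 bp.

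Among the antagonists, Sfrp5, Sfrp1, Dkk1 and Frzb had the longest H3K27me3. Sfrp5 had 7355 bp in young and 1526 bp in aged HSCs, with 1756 and 0 bp of its promoter covered. At Sfrp1, 5175 bp in 4 peaks in young HSCs stood against none anywhere in the gene or flanks in aged HSCs. Dkk1, which blocks Lrp coreceptors, had 4318 and 2534 bp, with 2001 and 1437 of its 2001 promoter bases covered. Frzb had 3219 and 233 bp. Sfrp2 and Dkk2 were marked at the promoter in young HSCs only, and Sfrp4 and Dkk3 at both ages, with 167 and 267 promoter bases covered in aged HSCs. Wif1 had 2077 and 691 bp away from its promoter, which carried H3K4me3 instead, of 223 bp with 23 reads in young and 431 bp with 24 reads in aged HSCs.

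H3K4me3 and H3K27me3 met at the promoters of 9 of the 39 genes in young HSCs (3.13% of all genes) and of 3 in aged HSCs (0.901%). The 9 were Wnt2, Wnt2b, Wnt5a, Wnt16, Fzd2, Sfrp1, Frzb, Dkk1 and Dkk3, and the 3 were Wnt5a, Wnt16 and Frzb, which in aged HSCs carried H2AK119ub1 too. With equal numbers of peaks, 3 genes had both marks in young HSCs (1.44% of all genes). In the full lists of young HSCs 30 of the 39 genes had H3K27me3 and 14 had H3K4me3. The share with both marks therefore depends on how common H3K27me3 was in this set, and no excess beyond that was tested. The marks come from separate libraries of pooled cells, so these overlaps do not show that a cell or a chromosome carries both.

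At Wnt16, H3K4me3 lay in the same place at both ages, at chr6:22288973-22289254 in young and chr6:22288963-22289238 in aged HSCs, in a coding exon and intron, with 16 and 18 reads at the summit. The whole of each peak was within H3K27me3, sharing 282 and 276 bp. Wnt16 was also the only one of the 39 with all 3 marks in young HSCs. Frzb had 863 bp of H3K4me3 in 2 peaks in young HSCs, 815 bp of it within H3K27me3, and 1 peak of 400 bp in aged HSCs, 233 bp of it shared. Wnt5a shared 864 bp in young HSCs but none in aged HSCs, where the H3K4me3 peak at chr14:28505180-28505530 in the UTR lay by the first start site and the promoter H3K27me3 by the second one. H3K4me3 at Dkk1 was a single peak of 254 bp, chr19:30549571-30549824, across the annotated start site used for the promoter calls. It had 14 reads, the fewest of any H3K4me3 peak at the 39 genes, and lay wholly within H3K27me3. No base was shared at Wnt2 and Fzd2, where the marks lay side by side within the same promoter.

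**Figure D4:**
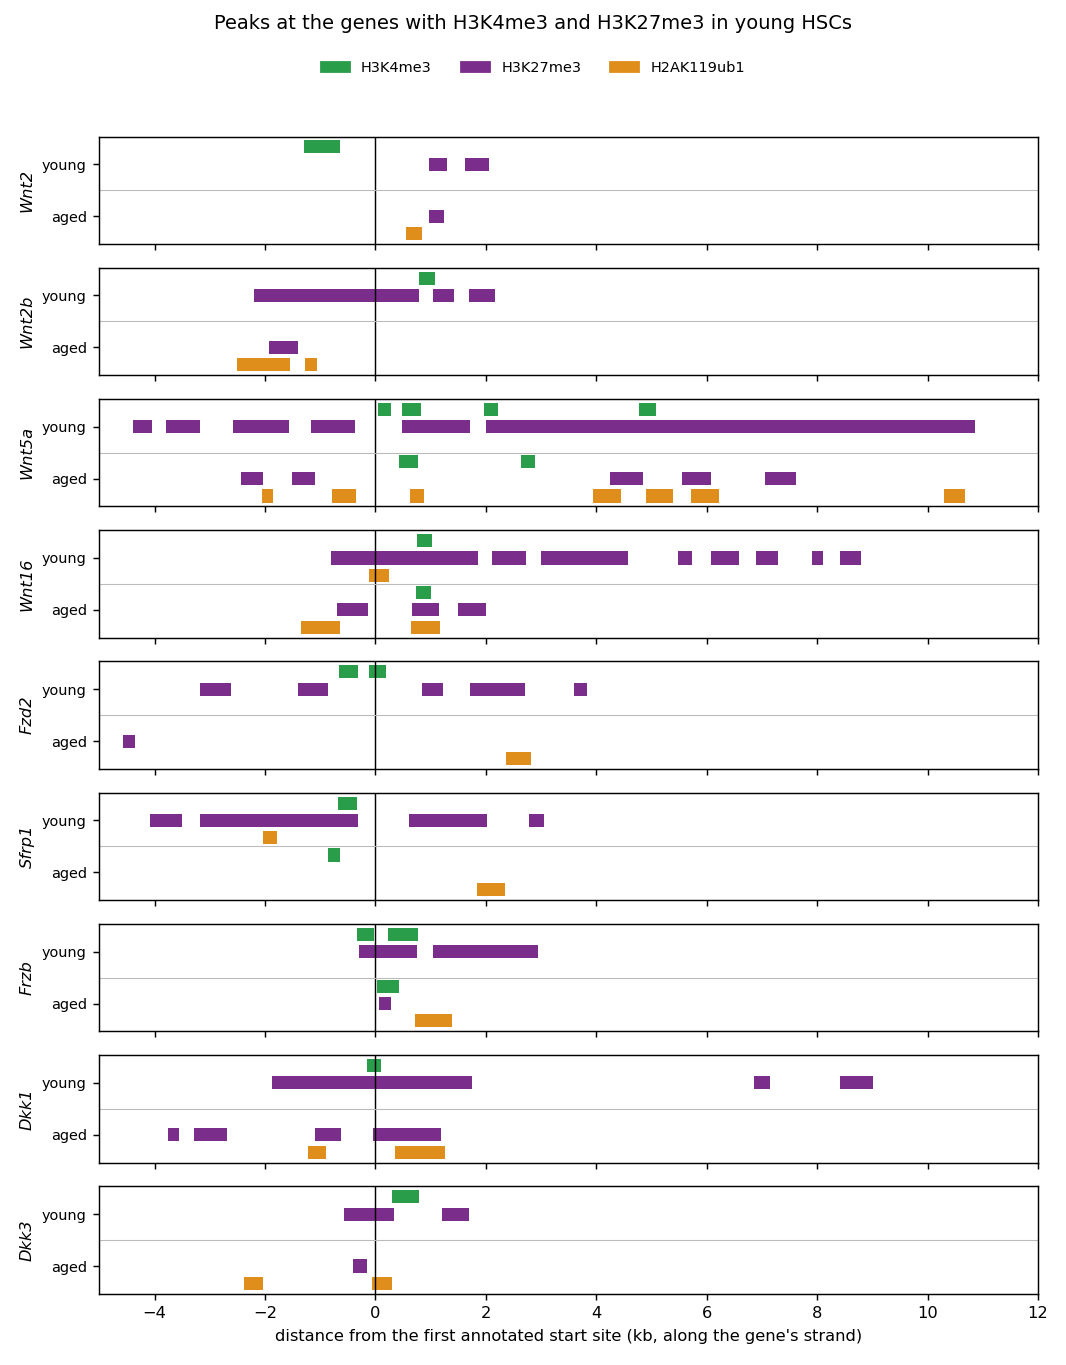
Peaks of H3K4me3 (green), H3K27me3 (purple) and H2AK119ub1 (orange) at the 9 genes whose promoters had H3K4me3 as well as H3K27me3 in young HSCs, by distance from the first annotated start site (x axis, kb, along the gene's strand; vertical line at the start), with young HSCs in the upper and aged HSCs in the lower rows of each panel. H3K27me3 at Wnt5a reached 8851 bp in one peak in young HSCs and was broken into shorter peaks in aged HSCs.

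Over all bases of the 39 genes and their flanks, 30.4% of H3K4me3 in young HSCs lay within H3K27me3 of young HSCs, beside 5.81% across the genome, and in aged HSCs 12.2% beside 1.85%. These shares depend on how much H3K27me3 the genes and flanks held, which in young HSCs was 189077 of 1375994 bp. The summed length of H3K4me3 was 9628 bp in young and 4168 bp in aged HSCs. H3K4me3 in the gene or within 5 kb was listed at 18 of the 39 in young HSCs (40.6% of all genes) and 11 in aged HSCs (29.0%). Peaks away from the promoter included those in a Wnt5b intron at chr6:119478851-119479117 and chr6:119480132-119480347 in young HSCs, each overlapped by a peak of aged HSCs. Wnt5b was the only gene of the 39 with no promoter H3K4me3 but with the mark inside the gene at both ages. A start site of another protein-coding gene, Fbxl14, also lies in the Wnt5b gene or its flanks. To which of the genes these peaks belong was not tested.

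The H2AK119ub1 of aged HSCs lay largely where H3K27me3 had been in young HSCs. Of the 30 genes with promoter H3K27me3 in young HSCs, 22 had promoter H2AK119ub1 in aged HSCs, where 50.0% of all such genes did. In bases, 65.1% of the aged H2AK119ub1 at the 39 genes and their flanks was within young H3K27me3, beside 49.8% over all peaks. At Wnt9b, Sfrp5 and Dkk1 all of it was, and at Wnt5a 2755 of 2778 bp, Wnt11 3257 of 3370 bp and Wnt10a 4785 of 5069 bp. It was less so at Wnt10b, with 201 of 2713 bp, and Wnt4, with 55 of 542 bp. None of it was at Wnt2, Wnt5b, Sfrp4, Fzd4, Fzd5 and Fzd7.

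The 2 Polycomb marks together were at the promoters of 2 genes in young HSCs (1.81% of all genes), Wnt10a and Wnt16, and of 17 genes in aged HSCs (5.28%). With equal numbers of peaks the count in aged HSCs was 6 (2.30% of all genes). The overlap with the shorter H3K27me3 list of aged HSCs was smaller than that with the young list: 28.3% of the bases of aged H2AK119ub1 were in aged H3K27me3, beside 26.4% over all peaks. Of the 12 genes that had H3K27me3 at the promoter in young HSCs only, 5 carried H2AK119ub1 in aged HSCs, near the share of all such genes (36.6%): Wnt3a, Wnt5b, Wnt9a, Wnt10b and Sfrp5. The other 7 had no Polycomb mark at the promoter in aged HSCs, namely Wnt2b, Wnt8b, Fzd2, Fzd3, Sfrp1, Sfrp2 and Dkk2.

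Wnt1 had the widest H2AK119ub1 peak of the 39 genes, 2707 bp at chr15:98789135-98791841, across its start site, UTR, coding exons and intron. Its gene and flanks held 409 bp of the mark in young HSCs and 2984 bp in aged HSCs. Wnt11 had regions of 2010 and 646 bp downstream and upstream of its first start site, and 0 bp of the mark in young HSCs. The lengths in young and aged HSCs were 641 and 4299 bp at Wnt3 and 1157 and 5069 bp at Wnt10a. Wnt10a was the exception at the promoter itself, where 837 bp were covered in young HSCs and 382 bp in aged HSCs, at different places, and this aged call does not hold with the start sites of basic transcripts alone.

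Within the gene or 5 kb, H2AK119ub1 was listed at 8 of the 39 in young HSCs (5.99% of all genes) and 31 in aged HSCs (29.0%), and H3K27me3 at 34 in young (27.8%) and 25 in aged HSCs (16.5%). All 19 ligands had some H2AK119ub1 in aged HSCs, with a median of 1687 bp and a range from 285 to 5069 bp. Receptors and antagonists had some at 6 of 10 each, with medians of 496.5 and 305 bp. The summed lengths over the 39 genes were 190783 and 52895 bp for H3K27me3 in young and aged HSCs and 3901 and 47877 bp for H2AK119ub1.

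Several ligand genes are neighbours, and the marks were read across each pair. Wnt10b and Wnt1 lie head to head on chromosome 15 with 11706 bp between them. The span of both genes had 6584 bp of H3K27me3 in young and 2053 bp in aged HSCs, and 0 and 5497 bp of H2AK119ub1. Wnt9b and Wnt3, also head to head and 24328 bp apart on chromosome 11, had 25665 and 7972 bp of H3K27me3 and 641 and 4723 bp of H2AK119ub1. For Wnt3a and Wnt9a, 16175 bp apart on chromosome 11, the values were 20462 and 2603 bp and 0 and 4485 bp. Wnt6 and Wnt10a lie in tandem on chromosome 1 with 6193 bp between them, and had 14726 and 3658 bp and 1157 and 3217 bp. In all 4 pairs, H3K27me3 was also present between the genes, and no single peak covered the promoters of both. The flanks of Wnt6 and Wnt10a overlap, so counting each base once gives 189077 bp of H3K27me3 in young HSCs over the 39 genes.

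The peaks often lay beside the start site and not on it. In young HSCs, 15 of the 30 genes with promoter H3K27me3 had a start site inside a peak, close to the 46.8% of all marked genes, and in aged HSCs 2 of 18 had, Wnt10a and Dkk1, where 23.4% of all marked genes had. For H2AK119ub1 in aged HSCs it was 4 of 24 (Wnt1, Wnt10a, Wnt10b and Dkk3), beside 19.3%. For H3K4me3 it was 2 of 14 in young HSCs, Fzd2 and Dkk1, beside 24.8%, and 0 of 9 in aged HSCs, beside 22.0%. Along the ligands, H3K27me3 in young HSCs covered 63.2% of genes at 750 bp upstream of the start, 36.8% at 250 bp upstream and 73.7% at 1250 bp downstream. H2AK119ub1 in aged HSCs covered 42.1% at 750 bp upstream, 15.8% at 250 bp downstream and 47.4% at 750 bp downstream. A dip at the start was visible in the profile of all genes too, for which H3K27me3 in young HSCs covered 7.65%, 6.43% and 8.50% at 750 bp upstream and 250 and 750 bp downstream. No receptor was covered by H3K27me3 at the points within 750 bp of the start at either age.

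**Figure D5:**
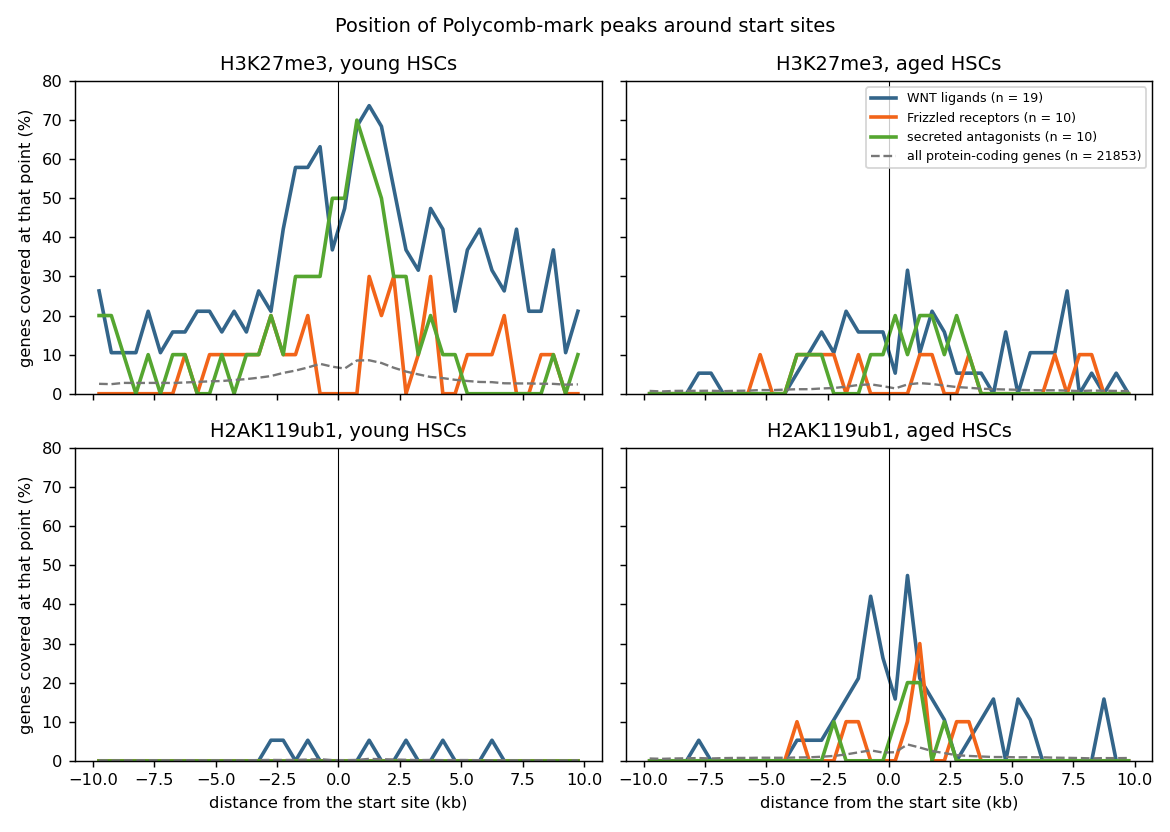
Percentage of genes (y axis) whose base at a given distance from the start site (x axis, kb, along the gene's strand) lay under a peak of H3K27me3 or H2AK119ub1 in young or aged HSCs, for ligands, receptors, antagonists and all protein-coding genes (dashed). Ligands reached 73.7% for H3K27me3 in young HSCs at 1250 bp downstream and 47.4% for H2AK119ub1 in aged HSCs at 750 bp downstream, with lower values at the start.

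As single regions, the H3K27me3 peaks at the 39 genes were wider than those of the lists and more often overlapped a peak of the other age. In young HSCs 189 H3K27me3 peaks had a median width of 578 bp, beside 397 bp in the list, and in aged HSCs 96 peaks had a median of 479.5 bp, beside 363 bp. Their median fold enrichment, 3.2 and 3.23, was near that of the lists, 3.1 and 3.13. Overlap with a young peak was found for 87.5% of those 96, where it was 66.0% for the aged list, and 30.2% of the 189 overlapped an aged peak, beside 15.4%. A wider peak has more room to overlap another, and these shares were not adjusted for width. The H2AK119ub1 peaks numbered 11 in young and 101 in aged HSCs, with median widths of 323 and 376 bp. Of the 101, 4 overlapped a young peak of that mark (3.96%, beside 7.07% in the list), and of the 11, 4 overlapped an aged peak (36.4%, beside 50.9%). The H3K4me3 peaks, 27 in young and 13 in aged HSCs, had 14 to 24 and 15 to 26 reads at the summit.

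The promoters of the ligands and receptors were rich in CpG, a property that the choice of genes did not use, and those of the antagonists were near all genes. Over the 1 kb around the start, the median ratio of observed to expected CpG was 0.738 for ligands, 0.826 for receptors and 0.565 for antagonists, beside 0.571 for all genes. All 10 receptors were at or above 0.6, as were 14 of 19 ligands and 5 of 10 antagonists, beside 47.5% of all genes. CpG-rich genes as a whole had H3K27me3 at close to the share of all genes. Of the 10384 CpG-rich genes, 17.6% had H3K27me3 in young and 9.85% in aged HSCs, beside 21 and 11 of the 29 CpG-rich genes of the 39. H2AK119ub1 in aged HSCs was at 19.7% of CpG-rich genes and at 17 of the 29, and H3K4me3 in young HSCs at 56.0% and at 11 of the 29. Genes of the 39 with H3K27me3 at both ages had a median ratio of 0.621, and those with it in young HSCs only 0.768. The ligands with the lowest ratios, Wnt8a (0.254), Wnt8b (0.326), Wnt16 (0.349) and Wnt10a (0.394), all carried H3K27me3 in young HSCs.

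Short motifs were searched on both strands of the RefSeq windows as a description. CTTTGAT, a form of the site read by TCF and LEF factors, was in the windows of Wnt11 and Wnt5b, and in 3.73% of all windows. CTTTGAA, another form, was in that of Dkk1 and in 5.14% of all windows. TATAAA, the TATA box, was in the windows of Dkk1, Dkk2, Fzd1, Wif1 and Wnt11 and in 13.6% of all windows.

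Other genes of the pathway formed a list of 42. H3K27me3 was at 16 of them in young HSCs and at 14 in aged HSCs, beside 16.5% and 8.58% of all genes. All 14 were also marked in young HSCs, as were 95.0% of all genes marked in aged HSCs. H2AK119ub1 was at 4 and 19 of the 42, beside 2.10% and 14.6%, and H3K4me3 at 18 and 12, beside 34.3% and 23.7%. The R-spondins, secreted amplifiers of WNT signalling, with their Lgr receptors and the ligases that remove Frizzled, resembled the ligands: 7 of 9 had H3K27me3 in young HSCs (Rspo1 to Rspo4, Lgr5, Lgr6 and Rnf43) and 6 in aged HSCs, all but Lgr5. Of 10 genes of the cytoplasmic relay, Axin2, a negative regulator and common target of the pathway, was the single one with H3K27me3, at both ages, whereas 7 had H3K4me3 in young and 5 in aged HSCs. Of 8 nuclear genes, Lef1 and Pygo1 had H3K27me3 at both ages. Among the rest it was at Ror1, Kremen2, the target genes Sp5 and Nkd1 and the secreted deacylase Notum at both ages. Ror2 had it in young HSCs only.

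The cell labels were checked on marker genes. Of 12 HSC genes, H3K4me3 was at 10 at each age, beside 34.3% of all genes in young and 23.7% in aged HSCs. H3K27me3 was at none of them, beside 16.5% and 8.58%. Slamf1, which encodes the CD150 used in the sort, had no H3K4me3 peak at its promoter at either age, and Kit had one there in aged HSCs only, though the gene or its flanks held 227 bp of the mark at Slamf1 and 907 bp at Kit in young HSCs. A missing promoter peak therefore does not show that a gene was off. Of 30 genes of other blood, stromal and endothelial cells, H3K4me3 was at 5 in young and 4 in aged HSCs and H3K27me3 at 9 and 5. H2AK119ub1 was at 4 of the 30 in young and 13 in aged HSCs, beside 2.10% and 14.6% of all genes. Stromal genes, of cells that are known sources of WNT ligands and antagonists, had H3K27me3 at 4 of 5 in young and 2 of 5 in aged HSCs, and H2AK119ub1 at 2 and 4. The other groups of 5 had H3K27me3 less often in young HSCs, at 2 B-cell, 2 T-cell, 1 erythroid, 0 myeloid and 0 endothelial genes. In aged HSCs these counts were 2, 1, 0, 0 and 0.

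With both H3K27me3 lists held to 20419 peaks, the widest being taken, the mark was at the promoters of 16 of the 39 genes at both ages, of 9 in young HSCs only and of 2, Wnt2 and Sfrp4, in aged HSCs only. Over all 21853 genes these counts were 1657, 1058 and 218. For H3K4me3 at 6723 peaks the counts were 5, 5 and 4, with Wnt5a and Wnt16 joining Fzd1 and Fzd7 in the aged-only set, and over all genes 2912, 2291 and 2260, a like near-even split. For H2AK119ub1 at 2593 peaks they were 1, 1 and 6, Wnt10a being the gene listed in young HSCs only, and over all genes 202, 258 and 599. At these equal lengths H3K27me3 was at 17 ligands in young and 13 in aged HSCs, and H2AK119ub1 at 2 and 5. Both counts kept their direction and their sizes were nearer to each other. For these marks the cut kept the widest peaks of the longer list and every peak of the shorter list. Wider peaks overlap a promoter more readily, so the kept direction cannot show that list length played no part.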

How the data were processed

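ChIP-seq of H3K4me3, H3K27me3 and H2AK119ub1 and of input was made from sorted HSCs after brief cross-linking and digestion with micrococcal nuclease. The submitters' processing notes name Bowtie2, MACS2 (version 2.2.6) and mm10. The authors deposited 1 pooled list per mark and age, narrow peaks for H3K4me3 and broad peaks for the other marks. The deposited columns hold positions, fold enrichment over background (a ratio), and −log10 of the q-value. The deposited −log10 p-value, a score here, was used for the narrow peaks alone. Names of the broad peaks carry 1 library number, so it is not certain that both libraries entered those lists. Input libraries have no list.

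Autosomal and sex-chromosome peaks were overlapped by at least 1 bp with promoters, the 1 kb either side of 54361 start sites of protein-coding transcripts in GENCODE M21 (21853 genes). Covered length was summed over each gene and 5 kb on either side. Summit reads were recovered from fold and p-value of narrow peaks, to within 0.01 of the deposited −log10 p-value. CpG ratios used the reference genome, sequences RefSeq windows. Python 3.11.15, pandas 2.3.3, numpy 2.4.6, scipy 1.17.1, pysam 0.24.0 and matplotlib 3.10.9 were used. Overlap and length functions were tested on simulated data. With 1 list per group there was no test, and counts are set beside the share of all genes.

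The genes and gene lists were chosen with earlier results of these data known. Named with values were the 4 genes per role with the longest H3K27me3 in young HSCs and those with H3K4me3 at both ages or with H3K4me3 and H3K27me3 together. Those with no peak were named. Of those with H2AK119ub1 in aged HSCs only, some were given with values of that mark and others were counted only. Alternatives were a −log10 q-value of at least 4, equal numbers of peaks, promoters of 2 kb either side, an overlap of 100 bp, basic transcripts, and peaks within 1 kb joined.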

Additional observations from a re-analysis of the deposited data

How the results depend on the processing

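No paired analysis was possible because the peak lists are pooled and carry no replicate. Of 60 counts (10 results under 6 alternatives), 47 stayed within 1.5 times the reported count. These include counts that could not move. Equal numbers of peaks leave the shorter list of each mark as it was, so counts that rest on such lists alone were fixed. Keeping only peaks whose −log10 q-value reached 4 leaves 1601 of 63142 and 39 of 20419 H3K27me3 peaks and 5 of 2593 and 128 of 17768 H2AK119ub1 peaks in young and aged HSCs. With these, H3K27me3 was at the promoters of 4 genes in young and 0 in aged HSCs, beside 2.24% and 0.0412% of all genes. H2AK119ub1 was at 0 and 0, beside 0.00915% and 0.206%. H3K4me3 with H3K27me3 was at 1 and 0, beside 0.334% and 0.00458%. H3K27me3 with H2AK119ub1 was at 0 and 0, beside 0.00458% at each age. The calls of the broad marks therefore rest mostly on peaks below that q-value, and their depth is unknown. With the same number of peaks at both ages, H2AK119ub1 was at 7 genes in aged HSCs (3.67% of all genes). H3K27me3 with H2AK119ub1 was at 6 in aged HSCs (2.30%), and H3K4me3 with H3K27me3 at 3 in young HSCs (1.44%). With promoters of 2 kb either side, H2AK119ub1 and its overlap with H3K27me3 were each at 4 genes in young HSCs (3.31% and 2.88% of all genes). An overlap of 100 bp and basic transcripts moved 0 counts past 1.5 times. Joined peaks could move none, because a gap of at most 1 kb cannot hold a promoter of 2001 bp. Leaving out a replicate could not be done on pooled lists.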
